A study of Drosophila melanogaster with 4 samples.

Results

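The bithorax complex of Drosophila melanogaster was examined for chromatin bound by Hairy in embryos. The peaks taken were those of chromosome arm 3R whose midpoint lay from 12470001 to 12820000 on Release 5 of the genome, a window of 350 kb named for the Hox genes Ubx, abd-A and Abd-B. This rule uses position alone, so the number, scores, widths and spacing of the peaks play no part in it. It gave 39 peaks, of 1971 on 3R and 8958 in the whole list.

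The study sequenced 2 libraries of Hairy ChIP DNA and 2 libraries of input DNA from whole embryos. The stage label reads 0 to 8 h, whereas the collection protocol names 8 to 16 h, so the age is uncertain. Both groups came from the strain Y cn bw sp. Its listed alleles were y[1] with oc[R3.2], further Gr22b[1] and Gr22d[1], the markers cn[1], bw[1] and sp[1], CG33964[R4.2], together with LysC[1] and lab[R4.2], besides MstProx[1], GstD5[1] and Rh6[1]. None of these is an allele of Ubx, abd-A or Abd-B. The ChIP used KW3-h-D1, a rabbit polyclonal antiserum against part of Hairy. The deposited result is a single peak list that gives the start, end and score of every peak but nothing per library. The read depth is therefore unknown, no value here has a replicate error, and no difference between windows was tested. The scale of the score is not named in the list, so scores are compared only within it.

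The genes of the bithorax complex encode homeodomain transcription factors that give the segments of the posterior thorax and the abdomen their identity. Ubx acts in the posterior thorax and the front of the abdomen, abd-A in the middle of the abdomen and Abd-B in its rear. Each gene is controlled by long stretches of regulatory DNA whose order along the chromosome follows the order of the body segments they serve. Segmentation proteins set these regulatory domains in the early embryo, and Polycomb and trithorax group proteins later maintain the state. Hairy is a repressor of the pair-rule class, the segmentation proteins expressed in stripes, and it works with the corepressor Groucho.

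The order of genes was taken from a RefSeq table of Release 6, used only for names and neighbours. From Ubx to Abd-B it lists 16 genes, of which 6 code for proteins, 7 give long noncoding RNAs, 2 give microRNAs and 1 gives an antisense RNA. In order of coordinate, modSP stands just before Ubx. Behind Ubx come the antisense RNA PS4, the noncoding RNA bxd, CG31275, the noncoding RNA CR44945 and Glut3 (named as a glucose transporter). The noncoding RNAs CR45750 and TS16, abd-A, MSAmiP and the noncoding RNAs iab8 and iab4 are next. The microRNA genes mir-iab-4 and mir-iab-8, the noncoding RNA CR43617 and Abd-B end the order. The noncoding RNA CR46267 and then VhaM9.7-d follow the complex. Taking this order to hold in Release 5, the low-coordinate end of the window is called the Ubx side and the high-coordinate end the Abd-B side. Individual peaks were not assigned to a gene or a regulatory domain, because no Release 5 annotation was used here. For the same reason the window's match to the complex was not checked, and no peak sequence was read. In the results below, the complex stands for this window.

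The bithorax complex held more Hairy peaks than most windows of its size on 3R, in several places along its length. The 39 peaks correspond to 111.4 per Mb and put 5.20% of the window's bases inside a peak. Of the other 78 windows of equal size on 3R, 68 held fewer peaks, 1 held as many and 9 held more. The other windows had a median of 23.5 peaks, with quartiles of 16 and 33 and a range from 1 to 56. By covered bases the bithorax window was lower in rank, with 14 windows above it, and the median of the others was 3.27%. The window is therefore in the upper part of the range of 3R by peak number and by coverage, and is extreme in neither.

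**Figure D1:**
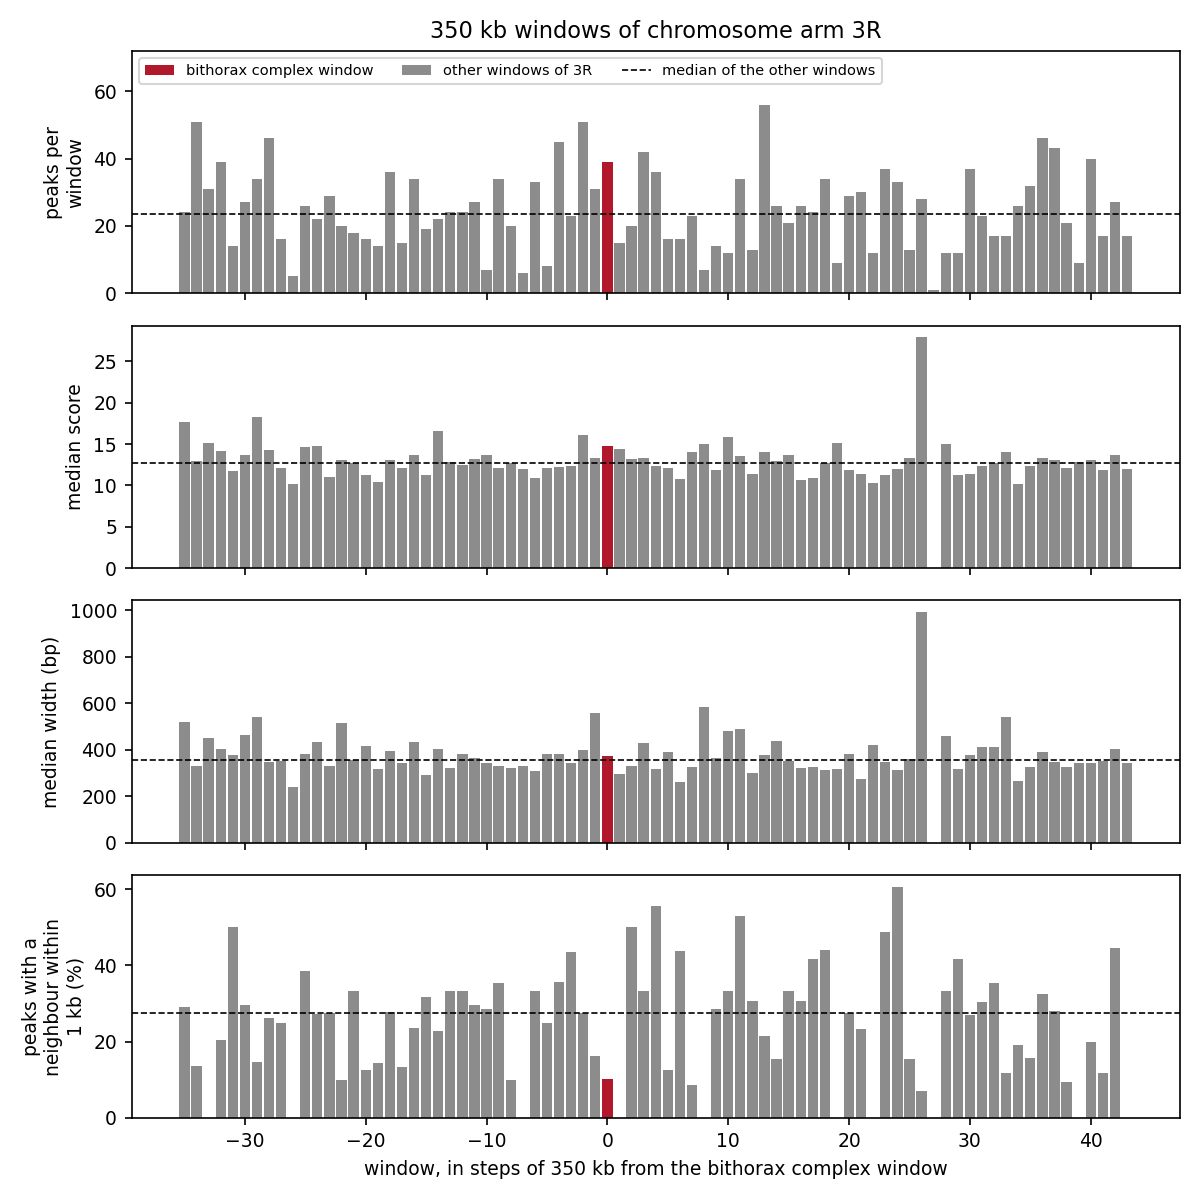
Peaks per window, median score, median width in bp and percent of peaks with a neighbour within 1 kb between midpoints, for the 79 complete windows of 350 kb on 3R, in steps from the bithorax complex window at 0. A window has no bar where it held fewer than 5 peaks (the lower 3 panels) or where the share is 0. The bithorax window stands above the dashed median of the others in peak number (39 against 23.5). In neighbours within 1 kb it stands below that median (10.3% against 27.5%). Against all 3R peaks, its share was lower at 1 kb (10.3% against 26.6%) but not at 2 kb (53.8% against 50.9%). Shares at 2 kb were not computed for the other windows.

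By the median, scores in the complex were higher than on the rest of the arm, by less than the spread among its own peaks. The median score was 14.76 over the 39 peaks, with quartiles of 10.9 and 21.2 and a range from 8.69 to 98.80. The other 1932 peaks of 3R had a median of 12.9 and quartiles of 10.2 and 17.5. Of the 77 other windows with at least 5 peaks, 67 had a lower median score and 10 a higher one. At or above the upper quartile of 3R, a score of 17.63, there were 13 of the 39 peaks, or 33.3% (95% Clopper-Pearson interval 19.1 to 50.2, counting error only), against a background of 25.1% over all 3R peaks. In the top 10% of 3R, at 25.44 or more, there were 6 of 39 (15.4%, interval 5.86 to 30.5), against 10%. Both intervals include the background share. Counted per window, 6 of the other 78 windows held more than 13 peaks at or above the upper quartile and 2 held as many.

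Peak widths in the complex were close to those of the arm. Widths ran from 201 to 1140 bp around a median of 375 bp (quartiles 264 and 573.5 bp), against a median of 368 bp for the other peaks of 3R. By median width, 42 of 77 windows were lower and 35 higher. Peaks of 1 kb or more numbered 3 of 39 (7.69%), against 8.63% over all 3R peaks. The 5 widest peaks measured 1140, 1064, 1038, 985 and 878 bp. They lay at 12758045 to 12759184, 12558213 to 12559276, 12652714 to 12653751, 12635094 to 12636078 and 12651561 to 12652438. In this order they scored 32.72, 25.93, 32.40, 22.99 and 23.76. Wider peaks also tended to score higher on the rest of the arm (Spearman's rho 0.67). These 5 scores were not compared with those of equally wide 3R peaks. The single broadest of the 1971 peaks of 3R, which lay outside the window, measured 5425 bp.

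The strongest Hairy peak of the complex was narrow for its score, not for the complex, where it ranked 15 of 39 from the widest. It lay at 12624418 to 12624854, 154.6 kb from the low end of the window, and scored 98.80 and was 437 bp wide. It ranked 11 of 1971 on 3R and 42 of 8958 in the list, and its score was 3.02 times that of the next peak in the complex. The nearest peaks were 9647 bp before it and 10239 bp after it. Of the gaps on 3R, 32.4% were longer than the first of these and 31.1% longer than the second. A comparison chosen after its values were seen set it beside the 21 peaks of 3R that scored 60 or more. It was the narrowest of them, followed by peaks of 487 and 909 bp, and their median width was 1601 bp. Among the 275 peaks of 3R within 50 bp of its width, none scored higher, the next scored 97.40 and the median was 13.4. Without this peak, the highest score of the window would be 32.72, which 42 of the other 78 windows exceeded. With it, 5 exceeded the window.

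**Figure D2:**
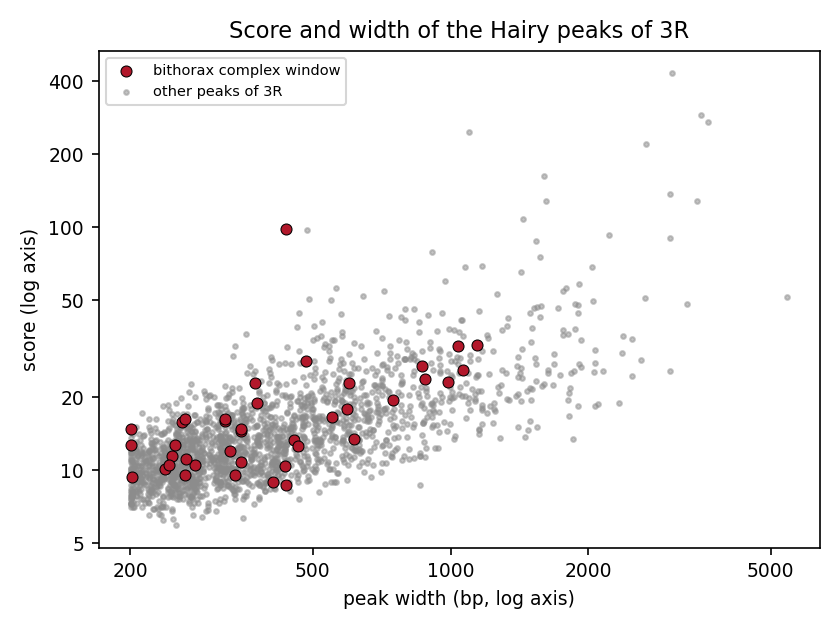
Score against width in bp, both on log axes, for the 39 peaks of the bithorax complex window and the other 1932 peaks of 3R. The peak scoring 98.80 at a width of 437 bp lies far above the other peaks of its width, beside 1 further 3R peak scoring 97.40 at 487 bp.

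Wider peaks tended to score higher in the complex as on the rest of the arm. Spearman's rho between score and width was 0.62 over the 39 peaks and 0.67 over the other 1932, and Pearson's r on log2 values was 0.58 and 0.70. Without the peak scoring 98.80, rho was 0.63 and r was 0.73 over 38 peaks. These values describe peaks of 1 list, which share libraries and peak calling, and are given without a test.

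Along the complex, peaks at or above the upper quartile of 3R lay in 5 of 7 bins of 50 kb, with most of them in the fourth and the sixth. These bins, counted from the Ubx side, held 4, 9, 5, 8, 4, 7 and 2 peaks. The covered share of the same bins was 4.11%, 7.27%, 3.38%, 9.72%, 2.52%, 8.08% and 1.35%. The fourth bin, from 12620001 to 12670000, had the highest median score, 22.95. Of its 8 peaks, 5 were among the 13 at or above the upper quartile of 3R. The first and the seventh bin held none of the 13, but had only 4 and 2 peaks. Over all 3R peaks the background share was 25.1%, and the counts per bin are too small to set against it. The 10 highest-scoring peaks, with scores of 22.91 or more, all lay between 12558213 and 12760698 and made up 43.2% of the bases inside peaks. Of these 10, 5 were in the fourth bin, 2 in the sixth and 1 each in the second, the third and the fifth.

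**Figure D3:**
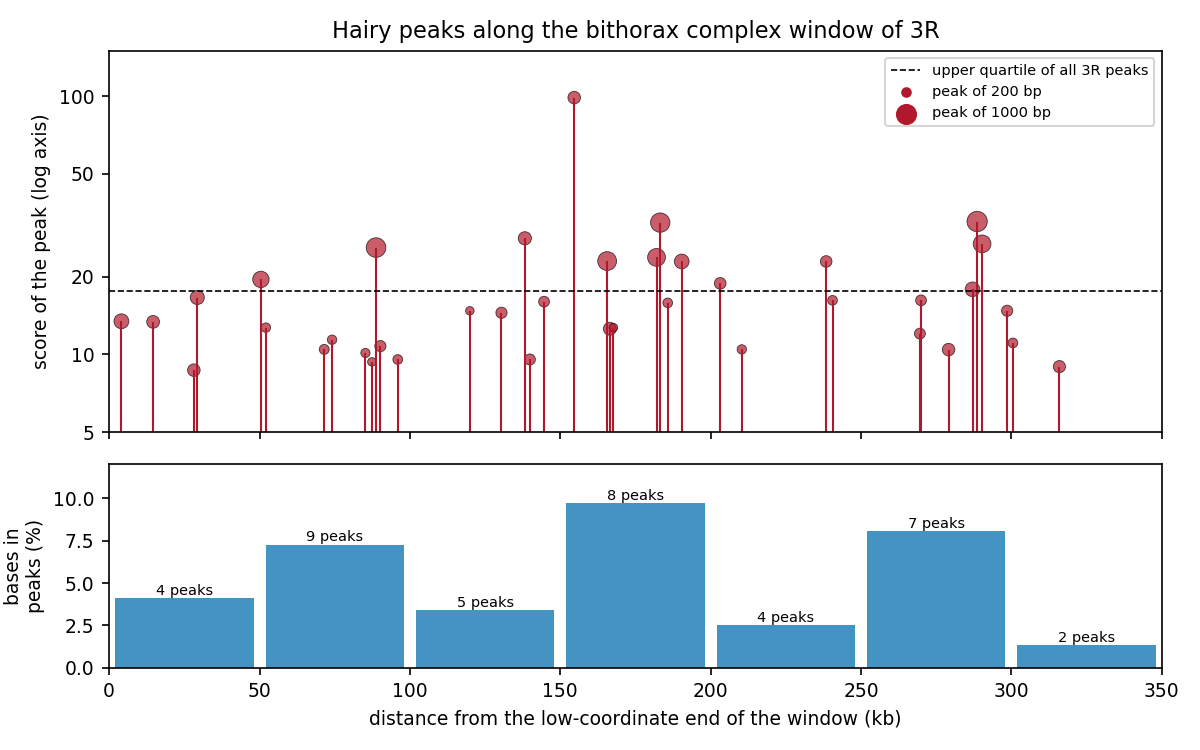
Score of each of the 39 peaks on a log axis (point area in proportion to width; dashed line, upper quartile of all 3R peaks at 17.63) and percent of bases inside peaks per 50 kb bin, against distance from the low-coordinate end of the window. The single peak of 98.80 stands at 154.6 kb, and the fourth bin has the highest coverage, 9.72%.

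At the low-coordinate end, on the Ubx side, the first bin held 4 peaks of moderate score. First came a peak of score 13.44 at 12473769 to 12474382, then one of 13.37 at 12484388 to 12484841. A pair at 12497942 to 12498378 and 12499032 to 12499583 scored 8.69, the lowest value of the complex, and 16.61. The second bin held the most peaks, 9, but its median score was 10.77. Its higher scores were 19.52 at 12520077 to 12520824, followed by 12.70 at 12521983, and 25.93 at 12558213 to 12559276. The other 6 of its peaks scored from 9.36 to 11.40. In this bin many peaks thus went with low scores and a median width of 263 bp.

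The third and the fourth bin, from 12570001 to 12670000, held 5 and 8 of the 39 peaks, and 1 and 5 of the 10 highest-scoring. The third bin had 5 peaks, of which that at 12607979 to 12608461 scored 28.17 and the others scored 14.76, 14.50, 16.01 and 9.56. The fourth bin opened with the peak scoring 98.80 and had no score below 12.57. Its further peaks included 22.99 at 12635094 to 12636078, 23.76 at 12651561 to 12652438, 32.40 at 12652714 to 12653751 and 22.91 at 12660085 to 12660683. The peaks at 12651561 and 12652714 were 275 bp apart and together filled 87.4% of the 2191 bp they span. The remaining peaks of this bin scored 12.57, 12.70 and 15.84.

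Toward the Abd-B side, the 2 strongest peaks lay in 1 run of 3. The fifth bin held peaks of 18.85, 10.46, 22.91 and 16.20, the third of these at 12708227 to 12708601. In the sixth bin, 3 peaks between 12756780 and 12760698 scored 17.87, 32.72 and 26.81 and covered 66.4% of 3919 bp. The peak of 32.72, at 12758045 to 12759184, was the second strongest and the widest of the complex. The other 4 peaks of this bin scored 12.04, 16.20, 10.44 and 14.76. The last 50 kb held only the peaks at 12770375 to 12770639 and 12785766 to 12786175, which scored 11.08 and 8.97.

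Distances to the nearest Hairy peak were close to those of the rest of the arm, apart from those under 1 kb. The nearest midpoint was a median of 1911 bp away for the 39 peaks and 1946 bp for the other peaks of 3R. Neighbouring midpoints were a median of 6483 bp apart, between 380 and 29048 bp (quartiles 1661 and 11060 bp). By this median spacing, 50 of the 77 other windows were lower and 27 higher, and their median was 4977 bp. Of the 39 peaks, 4 (10.3%, interval 2.87 to 24.2, counting error only) had another within 1 kb between midpoints, against 26.6% over all 3R peaks. These 4 formed pairs at 12635094 to 12636712 and at 12739418 to 12740123. Neighbouring peaks are not independent, so this interval and those of the other neighbour shares are narrower than they should be. Of 77 other windows, 63 had a larger share with a neighbour within 1 kb. The lower share did not hold at 2 kb, a limit chosen once the values were known, where it was 21 of 39, or 53.8% (interval 37.2 to 69.9), against 50.9% over all 3R peaks. At 10 kb the share was 35 of 39, or 89.7% (interval 75.8 to 97.1), close to the background of 87%. The peaks without a neighbour within 10 kb numbered 4, with scores of 13.37, 14.76, 98.80 and 8.97.

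Measured by gaps from edge to edge, 15 of the 39 peaks (38.5%, interval 23.4 to 55.4) had another within 1 kb, against 42.6% over all 3R peaks. The other 24 stood further from any peak. Of the 15, 6 formed 3 pairs and 9 formed 3 runs of 3. The runs of 3 lay at 12557252 to 12560364, at 12635094 to 12637779 and at 12756780 to 12760698. Their highest scores were 25.93, 22.99 and 32.72, and each also held a lower score, 9.36, 12.57 and 17.87. The share of peaks in runs of 3 or more was 23.1% (interval 11.1 to 39.3), against 16.8% over all 3R peaks, and the interval includes the background. The peaks of a run are counted together. This interval, like that of the 15 peaks, is therefore narrower than it should be. No run in the complex was longer than 3.

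Peaks were spread over most of the complex. In bins of 10 kb, 24 of 35 held a peak, no bin held more than 3, and at most 3 empty bins lay in a row. Of the other 78 windows, 2 had more occupied bins, 1 had as many and 75 had fewer, with a median of 13. Among the 13 other windows whose number of peaks was within 5 of 39, a set chosen after the values were seen, occupied bins ranged from 16 to 21. The share with a neighbour within 1 kb ranged from 14.7% to 55.6% in these 13 windows, all above the 10.3% of the complex. By median spacing, 12 of the 13 were lower than the 6483 bp of the complex and 1 was higher. The longest stretch of the window without a peak was 33825 bp, at its high-coordinate end from 12786176, and 74 of the other 78 windows had a longer one. The limit of the window cuts this stretch, which runs on to 68412 bp. With the window widened by 50 kb at each end, 28.3% of windows had a shorter longest stretch, against 5.13% before widening. Inside the complex, the longest were 28751 bp between 12710666 and 12739418 and 27739 bp between 12680487 and 12708227. They were followed by 23740 bp after 12566094 and 20493 bp after 12499583. The 2 longest inner stretches lay next to each other in the part of the window toward Abd-B, with only the peaks of 22.91 and 16.20 between them.

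**Figure D4:**
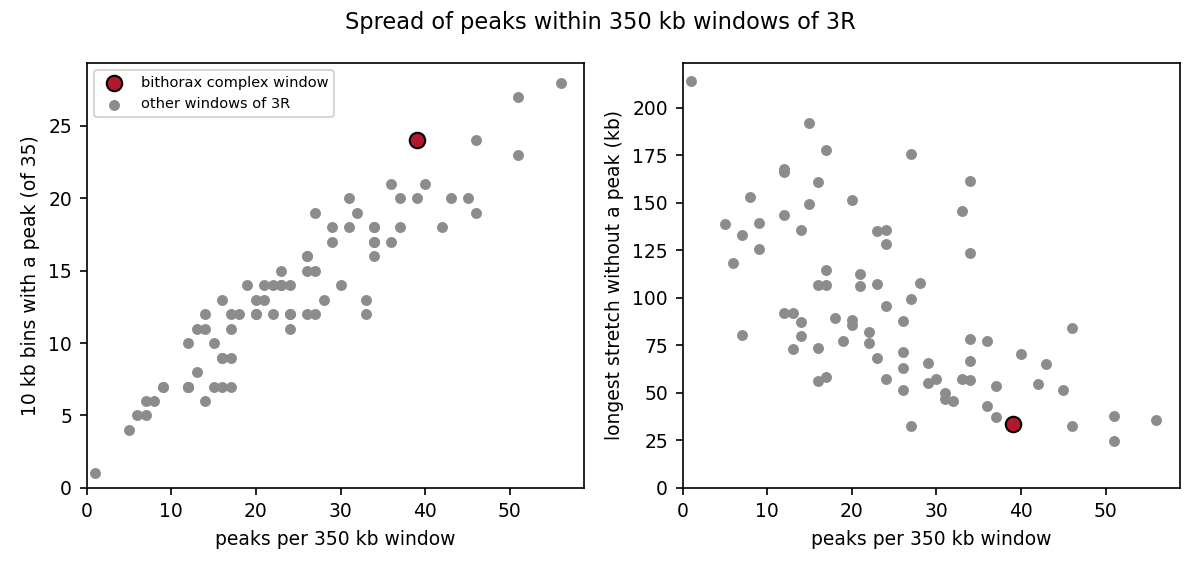
Number of 10 kb bins with a peak (of 35) and longest stretch without a peak in kb, each against the number of peaks, for the 79 windows of 350 kb on 3R. With 39 peaks the bithorax window had 24 occupied bins, above the 16 to 21 of the 13 windows with a similar number of peaks.

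The surroundings of the complex differed on its 2 sides. Within the window, 39 peaks had a median score of 14.76 and a median width of 375 bp, and 5.20% of the bases lay in peaks. The 350 kb before it, beyond the Ubx side, held 31 peaks with a median score of 13.37 and a median width of 558 bp, and its coverage was higher, at 5.73%. The 350 kb after it, beyond the Abd-B side, held 15 peaks with a median score of 14.39 and a median width of 296 bp, and 1.69% of its bases lay in peaks. The stretch without peaks at the high end ran on past the window to the peak at 12854588, and 71 of the 1970 gaps on 3R were longer than its 68412 bp.

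The limits of the window leave out the strongest peak nearby. Outside the low end, the nearest peaks were at 12466153 to 12467092 (score 12.34) and 12456586 to 12457167 (13.68). Inside it were those scoring 13.44 and 13.37. Further out, 48499 bp before the window, the peak at 12419740 to 12423264 scored 290.93 over 3525 bp, the second highest score of 3R. Outside the high end, the nearest peaks, at 12854588 to 12855279 and 12869552 to 12869820, scored 18.85 and 9.48. The last inside were those of 11.08 and 8.97. The libraries come from whole embryos, so weak binding in many cells and strong binding in few cells cannot be told apart in any of these scores.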

How the data were processed

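Hairy ChIP and input libraries were grouped by sample title. Fixation was for 15 min in 1.8% formaldehyde, per the labels' protocols. One Release 5 peak list of the whole series was used. Its build is FlyBase release 5 and its caller MACS, per the file headers and lines. The submitters' processing notes name build BDGP5 and the tools MACS2, BWA and CASAVA (1.7.0.2, 1.7.0.3), with no order. Whether replicates were pooled, the control, the threshold and duplicate handling decide what is listed and were not given in the sources used here. The score of each peak was used as the authors gave it. Starts and ends, the other values deposited, count from base 1 and include both ends.

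Peaks belong to a window by midpoint. The 350 kb windows were laid out from the bithorax window in both directions, complete windows only, with the length of 3R entered from general knowledge of Release 5. Medians needed 5 peaks. Neighbour distances are between midpoints, while runs and gaps go from edge to edge. Comparisons are ranks among windows and shares of peaks, with no p-value, since the window is 1 place and the list has no replicates. Shares have 95% Clopper-Pearson intervals. Peaks named were the 10 strongest, the 5 widest, those beside the 5 longest gaps, those in runs of 3 or more, and those beside the window's ends. The others were added by bin after their values were seen. The members and measures were chosen with earlier results of these data known. The ranking of windows by peak number was tested on simulated peaks of equal width placed at random, without the clustering of real peaks. Coverage, the longest stretch, occupied bins, joining and gaps were checked on a small made-up example. Ranks by score, width and spacing were not tested in this way. The planned promoter motif search was not run, as no promoter sequences were used here. Software was Python 3.11.15 with scipy 1.17.1, pandas 2.3.3, numpy 2.4.6 and matplotlib 3.10.9.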

Additional observations from a re-analysis of the deposited data

How the results depend on the processing

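No paired analysis was possible because the list does not separate the libraries, and no replicate was left out. Counting only peaks at or above the list's median score left 23 peaks, 3.79% coverage, a median width of 483 bp, a median score of 18.85, a spacing of 10528 bp, 56.5% with a neighbour within 10 kb and a longest stretch of 51230 bp. The percent of windows with a lower value was then 30.3 for width, 65.2 for score, 47.0 for spacing and 22.7 for neighbours. Joining peaks within 500 bp gave 5.35% coverage, with 32.5% of windows lower in width, 75.3% in score and 72.7% in neighbours within 10 kb. Widening the window by 50 kb at each end, which takes in the peak of 290.93, gave 5.50% coverage and a longest stretch of 68412 bp, with 68.3% of windows lower in width, 80% in spacing, 40% in neighbours and 28.3% in longest stretch. Narrowing it by 25 kb at each end gave 5.72% coverage and a longest stretch of 28751 bp, with 94.5% of windows lower in peak number, 38.9% in width and 51.1% in spacing. Shifting the other windows to the midpoints between them left 1.30% lower in longest stretch.

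Under all 8 alternatives, 81.7% to 94.5% of windows had fewer peaks and 79.5% to 86.8% less coverage. For occupied 10 kb bins, a measure added after seeing the data, the range under the same 8 was 93.4% to 97.4%, and among the 13 windows of similar peak number it was 100%. The place of the window by median width and by spacing moved to either side of the middle. By median score it stayed above the middle, at 65.2% to 90.7%. The share with a neighbour within 1 kb, also added later, was 0% once peaks were joined or the weaker peaks left out. Joining merged both pairs that made up this share, whose gaps were 169 and 54 bp. The share over all 3R peaks under these settings is not given, so 0% is no further difference from the arm. In the complex the share was 53.8% at 2 kb and 38.5% by gaps from edge to edge. The depth of the libraries is unknown, so a stretch without a peak is only one where none passed the authors' threshold.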
